A study of Mus musculus with 2 samples.

Results

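The 7 solute carrier families that carry most amino acids across mouse cell membranes (SLC1, SLC3, SLC6, SLC7, SLC36, SLC38 and SLC43) were followed in G1E, an immortalised erythroid progenitor line that the labels give as Gata1-. Members were the protein-coding genes whose symbol starts with one of these family names and a member number. The pattern matched 67 genes, of which 3 were antisense RNAs, and the remaining 64 are described here, out of 21461 nuclear protein-coding genes and 43346 genes in all. The only group held 2 biological replicates of total RNA longer than 200 nucleotides, each from 1 ng, with ERCC spike-in transcripts. The cells were labelled as male, strain C57BL/6J, of a postnatal donor, and every library carried the same Gata1- genotype with no treatment named. Nothing in the labels says whether the replicates came from separate cultures, so tests between the libraries measure only their difference, which may be technical.

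Amino acid transporters are grouped by the ions they use and by whether they need a partner. SLC7 light chains reach the cell surface joined to an SLC3 heavy chain and exchange one amino acid for another, while SLC7 cationic carriers work alone. SLC38 and SLC6 members couple uptake to sodium, SLC36 members use protons, and SLC43 members let amino acids pass down their gradient. Red cell precursors need glycine for haem, and they need leucine, glutamine and arginine for protein synthesis, which the kinases GCN2 and mTORC1 adjust to amino acid supply.

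The libraries of replicates 1 and 2 held 31649878 and 40597614 estimated counts. Nuclear protein-coding genes took 8513094 and 7669565 of these. A count of 0 therefore allows up to 3 counts, or 0.0948 and 0.0739 CPM (counts scaled to the library total). Levels are given as TPM, which corrects for transcript length. The median detected gene had a TPM 1.55 times as high in replicate 1, so ratios between libraries were taken from counts after TMM scaling. Gata1 itself had 798 and 649 counts, which do not show whether its transcript can be translated. All 8 erythroid progenitor markers were detected, led by Kit (175.0 and 114.55 TPM) and Gfi1b (122.69 and 71.97 TPM), and all 8 lymphocyte markers were at 0. Of the mast cell markers, Cpa3 had 51.44 and 24.76 TPM while Ms4a2 had 0.27 and 0.19 TPM and Cma1 and Mcpt4 were at 0. Pf4 (12.77 and 9.78 TPM) and Itga2b (7.83 and 3.66 TPM) led the megakaryocyte markers. Macrophage and granulocyte markers summed to 0.77 and 0.33 TPM, led by Cd68 and Adgre1. Fibroblast and endothelial markers summed to 0.13 and 0.01 TPM, led by Pdgfra and Pecam1.

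Few of these carriers reached 1 TPM in both libraries. A gene was called detected at 1 TPM or more in both libraries, and 14 of the 64 members (21.9%) were detected, against 38.9% of nuclear protein-coding genes. No read was assigned in either library to 33 of the 64 members, beside 10165 of the 21461 nuclear protein-coding genes. Another 5 members had counts that summed to fewer than 10 over both libraries. The other 26 could be tested, beside 10103 of the nuclear protein-coding genes. All members together summed to 231.19 TPM in replicate 1 and 182.15 TPM in replicate 2, of which Slc7a8 alone held 28.3% and 22.7%.

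Light and heavy chains of the heteromeric exchangers were the most abundant members. Slc7a8 (chromosome 14, 54722209 to 54781946, minus strand, GRCm38), a light chain that exchanges neutral amino acids, had 65.43 and 41.32 TPM (53.4 ± 17.0, SD, n = 2) from 5439 and 4751 counts. Slc3a2, the heavy chain that carries the light chains to the surface, had 34.99 and 24.69 TPM (29.8 ± 7.28, SD, n = 2). Slc7a5, the light chain best known for leucine uptake, had 18.52 and 18.85 TPM. In both libraries the deposited credibility intervals of Slc7a8 and Slc3a2 overlapped neither each other nor that of the next member, so these places were resolved within each library. The light chains together summed to 85.61 and 61.2 TPM, which was 2.45 and 2.48 times the level of Slc3a2, a ratio of levels that scarcely differed between libraries. Slc7a8 stood 3.53 times above Slc7a5 in replicate 1 and 2.19 times above it in replicate 2.

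The remaining light chains were far lower. Slc7a6, which exchanges cationic for neutral amino acids, had 1.04 and 0.73 TPM, just outside the detection limit. Its relative Slc7a7 had 0.53 and 0.25 TPM from 23 and 15 counts, and it overlaps Oxa1l on the opposite strand, which had 734 and 607 counts. No source used here says whether the counting used strand, so those few counts cannot be separated from Oxa1l. Slc7a11, the light chain of the cystine and glutamate exchanger, had 18 and 14 counts (0.09 and 0.05 TPM). The other light chains (Slc7a9, Slc7a10, Slc7a12, Slc7a13 and Slc7a15) had no counts, and the second heavy chain, Slc3a1, had 0 and 6.

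Among the cationic carriers, 1 gene held nearly all of the level. Slc7a1, which takes up arginine and lysine, had 17.86 and 9.63 TPM (13.7 ± 5.82, SD, n = 2) from 2676 and 1873 counts. Slc7a3 had 2 and 0 counts, Slc7a14 had 0 and 1, and Slc7a2 and Slc7a4 had none. Slc7a6os also matched the family pattern and was detected at 5.58 and 3.45 TPM, but it is not a transporter: it is named for its place on the strand opposite Slc7a6, 2.01 kb away. Without it, 13 of 63 members were detected.

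The SLC38 family supplied the largest number of detected members, 5 of 11. Slc38a2, a sodium-coupled carrier of small neutral amino acids known to be induced when amino acids are short, had 26.47 and 17.94 TPM (22.2 ± 6.03, SD, n = 2) from 2533 and 2375 counts. Slc38a10 had 9.81 and 7.08 TPM. Slc38a7, which exports glutamine from lysosomes, had 5.50 and 3.29 TPM. Slc38a9, the arginine sensor of the lysosomal membrane, had 3.33 and 2.34 TPM, and Slc38a6 had 3.65 and 3.53 TPM. Slc38a2 thus made up 54.2% and 49.9% of the family's summed TPM, and each of these 5 was at or above 2.34 TPM in both libraries. Slc38a1, the closest relative of Slc38a2 in function, had no counts in either library, as had Slc38a3, Slc38a4 and Slc38a8.

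In the SLC43 family, Slc43a3 was the main member in both libraries. Slc43a3, which is known as a carrier of purine bases rather than amino acids, had 24.01 and 18.31 TPM (21.2 ± 4.03, SD, n = 2). Slc43a2, a carrier of branched-chain amino acids and phenylalanine, had 2.96 and 1.55 TPM. Slc43a1, a carrier of the same amino acids, had 0.06 and 8.37 TPM, so it was the lowest of the family in replicate 1 and the second in replicate 2. The share of Slc43a3 in the family's summed TPM was 88.8% in replicate 1 and 64.9% in replicate 2.

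Sodium-coupled exchangers and carriers of the SLC1 and SLC6 families were low. Slc1a5, an exchanger known for glutamine uptake, had 3.97 and 8.21 TPM. Slc1a4, which exchanges alanine, serine and cysteine, had 1.63 and 0.97 TPM. The 5 glutamate carriers of SLC1 (Slc1a1, Slc1a2, Slc1a3, Slc1a6 and Slc1a7) had no counts. Of 21 SLC6 members 14 had no counts in either library, and Slc6a13, which carries GABA and taurine, was the only 1 detected in both, at 2.20 and 1.22 TPM. Slc6a9, the plasma membrane glycine transporter GlyT1, had 0.68 TPM in replicate 1 and 4.68 TPM in replicate 2, and was the most abundant SLC6 member by mean. Slc6a8, the creatine transporter, had 1.28 and 0.55 TPM, and Slc6a6, the taurine transporter, had 8 and 0 counts. In SLC36, Slc36a1, which exports small amino acids from lysosomes with protons, had 1.12 and 0.84 TPM, and Slc36a2, Slc36a3 and Slc36a4 had no counts.

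Below the first 2 places the order of levels was only partly resolved. In replicate 1 the credibility intervals of Slc38a2 and Slc43a3 overlapped, as did those of Slc7a5 and Slc7a1. In replicate 2 the intervals of Slc7a5, Slc43a3 and Slc38a2 overlapped from each to the next, and Slc7a1 stood below them. From Slc7a6os downwards in replicate 1, every detected member overlapped the next. These intervals cover uncertainty of the estimate within a library and not the spread between replicates.

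**Figure D1:**
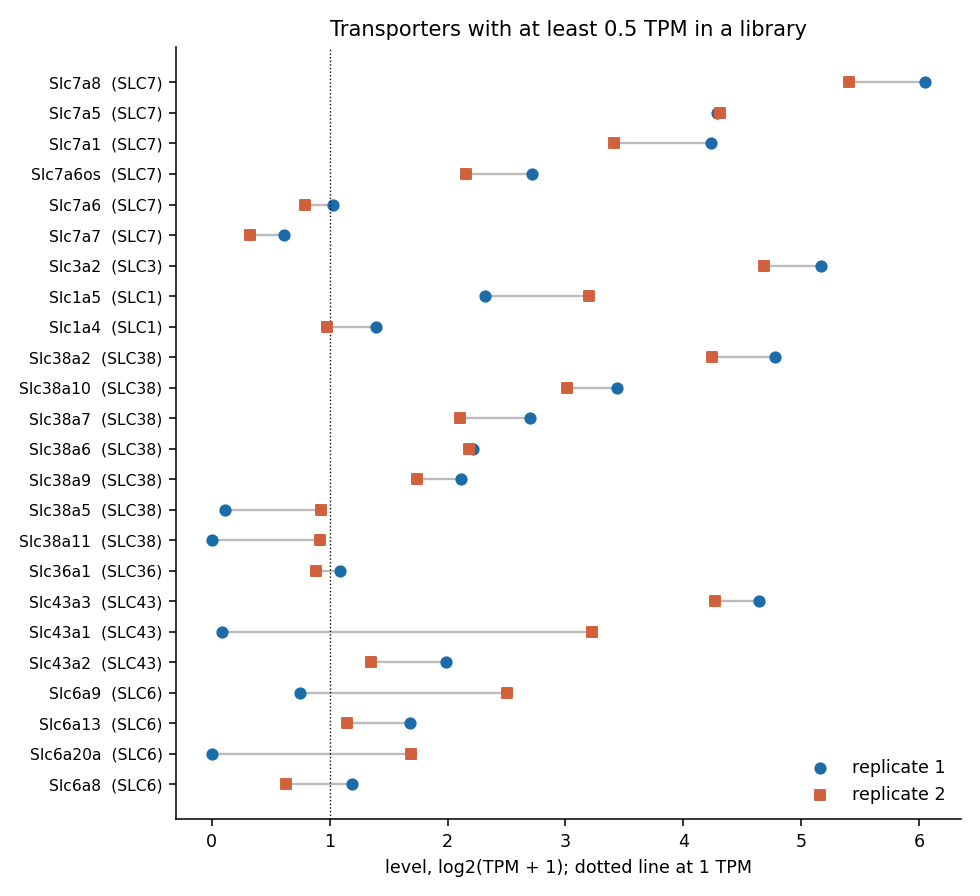
Level of each member with at least 0.5 TPM in a library, as log2(TPM + 1), with circles for replicate 1, squares for replicate 2 and a dotted line at 1 TPM. Slc7a8 is highest in both libraries, most members lie somewhat higher in replicate 1, and Slc43a1, Slc6a9, Slc1a5, Slc6a20a, Slc38a5 and Slc38a11 lie higher in replicate 2.

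Levels per gene in the plot of log2(TPM + 1) include the shift of TPM between the libraries, which the comparison of counts removes. For each gene with at least 10 counts over both libraries, a two-sided exact binomial test compared its rounded counts with the ratio of TMM library sizes. A gene was called at a Benjamini-Hochberg adjusted p under 0.05 over all 11902 genes tested and at least a 2-fold ratio. The p-values and the 95% intervals take in counting error alone, between these libraries, and say nothing of a condition.

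By this test 7 members were called higher in replicate 2 and 0 in replicate 1. Over all genes tested, 7.29% were called, 5.09% higher in replicate 2 and 2.20% in replicate 1, and among nuclear protein-coding genes 4.27% were called higher in replicate 2. The 7 were Slc43a1, Slc6a9, Slc38a5, Slc38a11, Slc6a20a, Slc6a17 and Slc1a5. Of these, 5 reached 10 counts only through replicate 2, so they had to differ to be tested at all and their number is no evidence of a direction. Among the 21 members that reached 10 counts in replicate 1 alone, Slc6a9 and Slc1a5 were called. Among the 20 with at least 100 counts over both libraries, Slc43a1, Slc6a9 and Slc1a5 were called. Of these, Slc43a1 (3 and 732 counts) and Slc6a9 (33 and 414) reached 100 counts only through replicate 2. With that filter, 225 of all genes were called higher in replicate 2 and 35 in replicate 1. The share of all genes is not given here for either subset, so these counts have no background to be read against. The median log2 ratio of the 26 tested members was 0.13, against 0.01 over all genes tested. The 26 include the 5 that passed the filter only through replicate 2, which raise this median. With library totals in place of TMM, which moved the median of all genes to -0.52, 6 members were called higher and 1 lower in replicate 2, beside 396 and 1021 of all genes. With spike-in counts, 514 and 10351 in the libraries, 1 member was higher and 20 were lower, beside 36 and 11608 of all genes.

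**Figure D2:**
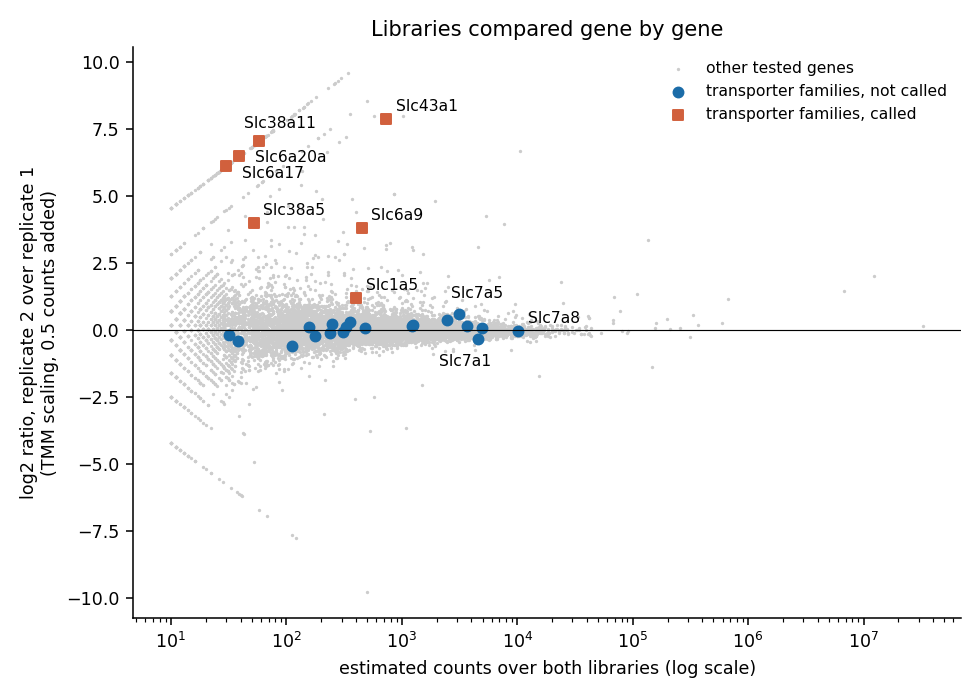
Log2 ratio of replicate 2 over replicate 1 (TMM scaling, 0.5 counts added to each library) against estimated counts over both libraries on a log axis, for every tested gene. The 7 called members (squares) lie above 1. Of the abundant members labelled, Slc7a8 (-0.03) lies near 0, Slc7a1 (-0.35) below it and Slc7a5 (0.59) above it. For Slc38a11, Slc6a20a and Slc6a17, at 0 counts in replicate 1, the plotted ratio depends on the 0.5 counts added.

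The widest difference was in Slc43a1 (ENSMUSG00000027075, chromosome 2, 84838850 to 84863594, plus strand, GRCm38). Its counts were 3 and 732 in replicates 1 and 2, a ratio of 274 (95% interval 93.3 to 1331; exact test, adjusted p = 2.28e-230). The libraries were so far apart that this carrier was near absent in one and among the first 10 members in the other. Its family neighbour Slc43a3, 73.0 kb away on the same strand, had 1153 and 1328 counts, a ratio of 1.29 (95% interval 1.19 to 1.40) that did not reach 2-fold.

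Slc6a9 (chromosome 4, 117834506 to 117875198, plus strand) had 33 counts in replicate 1 and 414 in replicate 2. The ratio was 14.1 (95% interval 9.87 to 20.7; exact test, adjusted p = 7.31e-93). Unlike Slc43a1, it was above the counting limit in both libraries. The overlapping genes B4galt2 (1 and 2 counts) and Ccdc24 (no counts), both on the opposite strand, held almost nothing.

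Of the remaining called genes, Slc1a5 had counts well above the filter in both libraries, and the others had 3 or 0 counts in replicate 1. Slc38a5, which exchanges glutamine, asparagine and histidine against protons, had 3 and 49 counts, a ratio of 18.3 (95% interval 5.92 to 92.0). Slc38a11 had 0 and 58 counts, a ratio of 21.7 when replicate 1 is set to 3 counts, with an exact 95% interval that starts at 17.1. Slc6a20a, a carrier of proline, had 0 and 39 counts, a ratio of 14.6 set the same way, with an interval that starts at 11.3. Slc6a17, known as a vesicular carrier of neutral amino acids in neurons, had 0 and 30 counts, a ratio of 11.2 with an interval that starts at 8.58. Its posterior mean levels were 0.71 and 0.69 TPM with credibility intervals that overlapped (0.205 to 1.30 and 0.305 to 1.12), so on that estimate the difference fell under 2-fold, with a log2 ratio of 0.57 after the median shift was removed. Their levels in replicate 2 ranged from 0.16 TPM (Slc6a17) to 2.22 TPM (Slc6a20a), far below that of Slc7a8. Slc1a5 had 131 and 269 counts, a ratio of 2.30 (95% interval 1.86 to 2.86; exact test, adjusted p = 2.12e-14).

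On posterior mean TPM, less the median shift, the log2 ratios of other called genes were smaller but stayed above 1. That of Slc43a1 was 5.66 in place of 8.10, that of Slc6a9 2.33 in place of 3.82, that of Slc38a5 2.30 in place of 4.20 and that of Slc38a11 2.26 in place of 4.44. Those of Slc6a20a (4.83 in place of 3.87) and Slc1a5 (1.55) were not smaller.

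The abundant carriers differed little. Slc7a8 had a ratio of 0.98 (95% interval 0.943 to 1.02), Slc3a2 1.09 (1.02 to 1.16) and Slc38a2 1.05 (0.995 to 1.11). Slc7a5 was higher in replicate 2 beyond counting error, with 1337 and 1796 counts and a ratio of 1.51 (95% interval 1.40 to 1.62; exact test, adjusted p = 1.7e-28), but under the 2-fold limit. Slc7a1 went the other way, with a ratio of 0.786 (95% interval 0.740 to 0.834; exact test, adjusted p = 2.68e-14), also under that limit. The 19 tested members that were not called had ratios from 0.657 (Slc6a8) to 1.51 (Slc7a5).

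The 3 called members at 0 in replicate 1 and the pair at 3 counts were set beside the genes of red cell maturation, since these moved between the same libraries. Of 20 such genes, 11 were called higher in replicate 2 and 0 in replicate 1, beside 5.09% and 2.20% of all genes tested. The list was chosen with earlier results of these data known, so this count is not independent of the choice. Their summed level was 618.8 and 1922.39 TPM. None of the 20 was at 0 in both libraries. Slc4a1, the red cell anion exchanger, had 115 and 10387 counts, the water channel Aqp1 1 and 496, and the blood group protein Rhd 20 and 382. The globin genes Hba-a2 (ratio 15.4), Hba-a1 (8.55), Hbb-bs (18.9) and Hbb-bt (28.4) were higher too, although reads of such near-identical pairs may have been divided between copies. Rhag, at 131.51 and 86.48 TPM, had a ratio of 1.02. The part of these maturation genes in the transporter differences was not tested, and in bulk RNA more cells of a type and more RNA per cell cannot be told apart.

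Transcript tables divided each gene's counts among annotated transcripts, and this division changed the reading of several called genes. Transcript types came from GENCODE M21 while the tables used M4, so a type may differ from that of the authors' annotation. In Slc1a5 (chromosome 7, 16781340 to 16798274, plus strand) the protein-coding transcript Slc1a5-201 (2741 nucleotides in the deposited table, another length in M21) fell from 105.96 to 16.95 counts, and its credibility intervals in TPM (1.09 to 2.09 and 0.0206 to 0.719) did not overlap. The gain in replicate 2 was on transcripts annotated as non-coding. Slc1a5-202, with a retained intron, had 0 and 135.15 counts, Slc1a5-207, also with a retained intron, had 3.08 and 75.49, and the processed transcript Slc1a5-204 had 6.41 and 36.51. Non-coding transcripts took 19.1% of the gene's counts in replicate 1 and 93.7% in replicate 2. On counts of protein-coding transcripts alone, Slc1a5 was 5.56-fold higher in replicate 1 (95% interval 3.31 to 9.89; exact test, adjusted p = 1.53e-13), the direction opposite to the whole gene.

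Slc43a1 rose on coding and non-coding transcripts alike. The coding Slc43a1-201 (15 exons) had 0 and 355.58 counts and the retained-intron Slc43a1-205 had 0 and 376.42, so 51.4% of the counts in replicate 2 were on the latter. The 3 counts of replicate 1 were assigned to another coding transcript, Slc43a1-202. Coding counts alone still gave a ratio of 133 (95% interval 45.2 to 649).

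Most counts of Slc6a9 were assigned to 1 coding transcript, Slc6a9-202 (3146 nucleotides, 15 exons), with 25.58 and 400.33 counts. The share of Slc6a9-202 in the gene's TPM was 58.3% in replicate 1 and 96.3% in replicate 2. Its credibility intervals (4.78e-05 to 0.425 TPM, then 3.78 to 4.7 TPM) did not overlap. By posterior mean its share was 13.09% and 73.45%, so the division of counts in replicate 1 was not resolved. Coding counts alone gave a ratio of 17.3 (95% interval 11.6 to 26.8). On this division the difference was as large without the non-coding transcripts, but that interval leaves out the uncertainty of the division.

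For the other called genes the transcripts limited what the gene symbol can say. All 58 counts of Slc38a11 were on the processed transcript Slc38a11-207, and no coding transcript of it had a count. All 39 counts of Slc6a20a were on Slc6a20a-202, a coding transcript of 722 nucleotides and 5 exons. The 3 counts of Slc38a5 were on Slc38a5-201 and the 49 of replicate 2 on Slc38a5-202, both coding, with credibility intervals that overlapped for each. Of the genes that were not called, Slc6a8 had 29.89 and 0 counts on the coding Slc6a8-203, whose credibility intervals in TPM overlapped (0.0372 to 0.611 and 1.11e-06 to 0.197), and most of the rest on Slc6a8-202, annotated as a target of nonsense-mediated decay.

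Over the tested members, non-coding transcripts took 1.97% of counts in replicate 1 and 6.06% in replicate 2. In replicate 2, Slc43a1 and Slc1a5 held 376.42 and 252.05 of the 1084.74 non-coding counts. In replicate 1 they held 0 and 25.04 of 348.15. Over all tested nuclear protein-coding genes the non-coding share was 10.7% and 10.6%, and retained-intron transcripts took 5.47% and 5.70%. With coding transcripts alone, 5 members were called higher in replicate 2 (Slc38a5, Slc43a1, Slc6a17, Slc6a20a and Slc6a9) and 2 higher in replicate 1 (Slc1a5 and Slc6a8), beside 5.16% and 2.34% of all genes. All counts of Slc7a8, Slc3a2, Slc38a2, Slc7a1 and Slc38a9 were on coding transcripts in both libraries. For Slc7a8, Slc38a2 and Slc38a9 only 1 transcript was listed, and both listed transcripts of Slc3a2 were coding. For those genes the annotation left no other outcome. Of the counts of Slc43a3, 16.4% and 17.4% were on a retained-intron transcript.

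**Figure D3:**
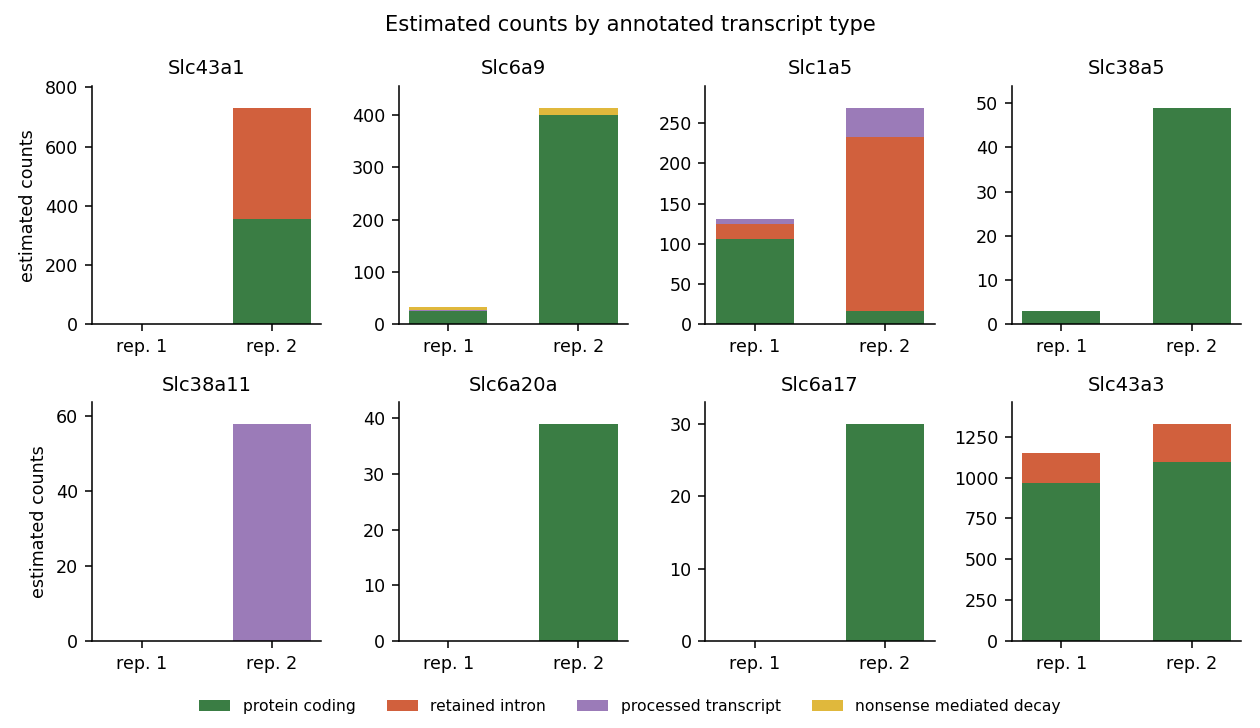
Estimated counts of the 7 called members and of Slc43a3 in each library, stacked by annotated transcript type, each panel with its own axis from 0. In Slc1a5 the coding part shrinks from 105.96 to 16.95 counts while the whole gene grows, in Slc43a1 coding and retained-intron transcripts share replicate 2, and Slc38a11 has no coding part.

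Promoter sequence of the members was described, without a test. The called members were all higher in the same library over the whole gene. For 5 of the 7 the count filter fixed that direction, because they passed it only through replicate 2. RefSeq windows of the 250 bases before a start (GRCm38.p6) were at hand for 46 members, 67 windows among 32851. The windows below are those nearest to the start of the member's main transcript, for 3 called members and for the most abundant one, without bases that lie in an annotated exon. That of Slc6a9 lay wholly in annotated exons and is not printed. Capitals mark matches, on either strand, to CCNCNCCC, the motif of KLF factors, which bind erythroid promoters.
Slc43a1, chr2:84840073-84840198, plus strand: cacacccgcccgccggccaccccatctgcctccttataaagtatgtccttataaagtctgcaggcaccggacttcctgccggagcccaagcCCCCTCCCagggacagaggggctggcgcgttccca
Slc38a5, chrX:8271261-8271380, plus strand: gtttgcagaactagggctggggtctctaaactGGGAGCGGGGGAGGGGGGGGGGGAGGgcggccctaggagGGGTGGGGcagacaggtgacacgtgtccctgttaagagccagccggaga
Slc38a11, chr2:65364035-65364276, minus strand: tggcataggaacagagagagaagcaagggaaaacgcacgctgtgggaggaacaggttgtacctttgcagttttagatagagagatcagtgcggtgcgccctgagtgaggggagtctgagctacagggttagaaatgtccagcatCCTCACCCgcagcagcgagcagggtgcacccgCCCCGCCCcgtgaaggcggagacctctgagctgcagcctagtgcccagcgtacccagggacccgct
Slc7a8, chr14:54781947-54782136, minus strand: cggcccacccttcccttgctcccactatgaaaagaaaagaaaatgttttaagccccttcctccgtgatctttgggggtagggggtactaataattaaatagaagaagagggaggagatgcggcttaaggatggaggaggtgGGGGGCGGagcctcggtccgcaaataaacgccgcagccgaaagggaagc

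The Slc43a1 window ends 906 bases inside the gene from the start of Slc43a1-205, so it does not lie before the transcripts that held the counts of replicate 2. The Slc38a5 window lies directly before the start of Slc38a5-201, which had 0 counts in replicate 2. That start is 261 bases ahead of the start of Slc38a5-202, which held the 49 counts of replicate 2. CCNCNCCC, added after the other motifs were chosen, was in 45.9% of all windows and in 44 of the 67 windows of members. It was in at least 1 window of 5 of 6 called and 8 of 11 detected members, some of which have several windows, so these counts are not on the scale of the share per window. The motif is GC-rich, and so were these windows, with a median of 60.8% GC for the detected members (taking the highest window of each) and 70.8% for Slc43a1, against a median of 52.4% over all windows. Both GATA motifs, AGATAA and TGATAA (each searched on both strands), were in 9.99% and 7.94% of all windows, in 4 and 7 of the 67 windows of members, and in a window of 0 of 6 called and 0 of 11 detected members. TGATGNAAT, the motif bound by ATF4 with C/EBP partners, was in 0.816% of all windows and likewise in none of these members. A match is a description of letters in these windows and not a binding site.

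Amino acid carriers outside the 7 families included 3 that were higher in replicate 2. Of 23 measured, 16 were tested, 3 were called higher in replicate 2 and 0 in replicate 1, beside 5.09% and 2.20% of all genes tested, and the median log2 ratio was -0.01. Slc16a10, which carries aromatic amino acids, had 433 and 1143 counts, a ratio of 2.96 (95% interval 2.65 to 3.32). Sfxn2 had 11 and 33 counts and Slc25a2, a mitochondrial ornithine carrier, 9 and 21, both with few counts behind them. The most abundant were mitochondrial: Sfxn1, a serine carrier (30.1 and 18.79 TPM), Slc25a44, a carrier of branched-chain amino acids (13.0 and 8.32 TPM), Slc25a38, which supplies glycine for haem (11.71 and 8.02 TPM), and Slc25a12, an aspartate and glutamate exchanger (7.45 and 5.24 TPM). Slc25a38 thus had 364 and 304 counts, a ratio of 0.937, while the surface glycine carrier Slc6a9 was higher in replicate 2.

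Genes of the amino acid response were led by Asns in both libraries. Of 25 genes of the GCN2 and ATF4 response, 18 were tested, 0 were called higher in replicate 2 and 1 was called higher in replicate 1, a count near the 7.29% called over all genes, with a median log2 ratio of -0.08. The exception was Nupr1, a stress-induced nuclear protein, with 80 and 33 counts. Asns, asparagine synthetase, led the list at 472.68 and 289.78 TPM, followed by Shmt2 (59.99 and 36.74 TPM), Ddit3 (44.59 and 27.46 TPM) and Eif2s1 (41.8 and 22.55 TPM). Slc38a2 and Slc7a1, both known as targets of this response, had ratios of 1.05 and 0.786. These 2 do not stand for other transporter members, since Slc3a2 had 1.09, Slc7a5 1.51 and Slc7a11 0.873. Phgdh, Cth, Cbs, Chac1, Vldlr and Stc2 had no counts in either library.

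The amino acid sensing machinery upstream of mTORC1 was detected almost whole. Of 35 genes, 30 were detected, beside 38.9% of nuclear protein-coding genes. Of the 35, 32 were tested and 0 were called in either direction at adjusted p and 2-fold, beside 7.29% of all genes tested. The median log2 ratio was 0.00. Lamtor3 (32.73 and 17.6 TPM) and Lamtor1 (18.7 and 12.05 TPM) belong to the lysosomal anchor of the Rag GTPases, Seh1l (28.45 and 16.62 TPM) to GATOR2, and Nprl3 (18.84 and 16.21 TPM) to GATOR1. Castor2, Rragb and Sesn3 had no counts.

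Among 24 enzymes that use glycine, serine, glutamine or cysteine, 18 were tested, with a median log2 ratio of -0.03. Of these 18, 1 was called higher in replicate 2 and 0 in replicate 1, beside 5.09% and 2.20% of all genes tested. Alas2, the erythroid enzyme that joins glycine to succinyl-CoA at the first step of haem synthesis, had 56 and 414 counts, a ratio of 8.30 (95% interval 6.27 to 11.2). Gclm (55.45 and 50.1 TPM), a subunit of the first glutathione enzyme, Shmt2, which converts serine to glycine in mitochondria, and Got2 (53.53 and 32.14 TPM) were among the most abundant. Alas2 and Slc6a9 each had 414 counts in replicate 2, against 56 and 33 in replicate 1. Their levels in replicate 2 were not equal, at 17.56 and 4.68 TPM, and a link between them was not tested.

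**Figure D4:**
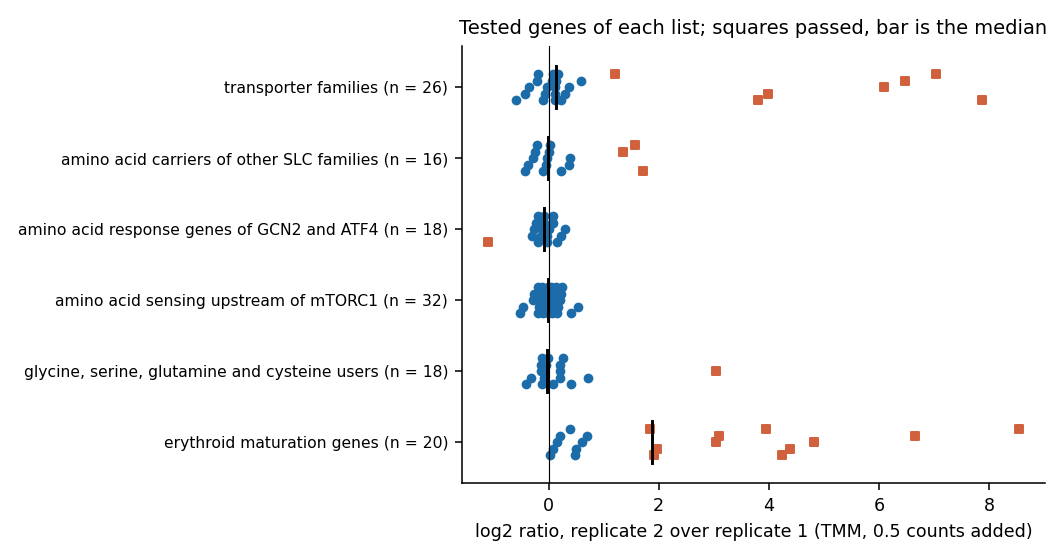
Log2 ratio of replicate 2 over replicate 1 (TMM scaling, 0.5 counts added) of each tested gene of the transporter families and of 5 other lists, with squares for called genes, circles for the rest and a bar at each median. Medians lie near 0 except for the erythroid maturation genes (1.89). The transporter families hold 7 squares above 1, of which 5 passed the count filter only through replicate 2.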

How the data were processed

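Total RNA of 2 G1E replicates was quantified by the authors, with 1 gene and 1 transcript table per library on mm10 and GENCODE M4, per the deposited file records. Per the file headers, the deposited values are estimated counts (expected counts, not normalised), TPM as maximum-likelihood and posterior mean estimates, FPKM, other columns with the bounds of TPM credibility intervals, and isoform shares in percent. No source used here names the aligner, the quantifier or the strand setting. Symbols, positions and transcript types came from GENCODE M21 (GRCm38), and promoter windows from RefSeq (GRCm38.p6).

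Estimated counts were rounded to whole numbers. Each gene with at least 10 counts over both libraries was compared by a two-sided exact binomial test against the ratio of TMM sizes (edgeR 4.0.16, R 4.3.3), with Benjamini-Hochberg adjustment over 11902 genes, an adjusted p under 0.05 and at least 2-fold as the limits, and 95% Clopper-Pearson intervals of the ratio. Ratios of genes at 0 counts in a library took 3 counts in that library, and are not lower bounds. The comparison was tested on simulated data. Intervals and floors cover counting error only. Alternatives used DESeq2 1.42.0 size factors, other scalings, filters, estimates and coding transcripts. Scripts used matplotlib 3.10.9, NumPy 2.4.6, pandas 2.3.3, SciPy 1.17.1 and Python 3.11.15.

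The members and lists were chosen with earlier results of these data known. Named were members detected in both libraries or called, Slc6a9 and Slc43a1, the most abundant member of each family, up to 4 of the highest and up to 6 called genes of each pathway list, and 2 of the highest of each marker list. Other genes were named after their values were seen. A gene that this rule names is not reported here.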

Additional observations from a re-analysis of the deposited data

How the results depend on the processing

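With a limit of 5 TPM, 7 members were detected in place of 14. With a limit of 0.5 TPM the number was 19, and with posterior mean TPM it was 18. The 7 calls higher in replicate 2 became 1 with spike-in scaling and 3 with at least 100 counts, a filter chosen after seeing the data. The 0 calls higher in replicate 1 became 1 with library totals (Slc6a8), 20 with spike-ins, 1 without a filter (Slc6a6), 1 without a fold limit (Slc7a1) and 2 on coding transcripts (Slc1a5 and Slc6a8), an alternative also added after seeing the data. DESeq2 size factors and totals over nuclear protein-coding genes gave 7 and 0, and edgeR's negative binomial exact test gave 6 and 0, without Slc1a5. Over all genes, calls of 606 higher and 262 lower in replicate 2 became 2070 and 1777 without a fold limit, 944 and 466 at 1.5-fold, 225 and 35 with at least 100 counts, and 263 and 33 by edgeR's test.

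The log2 ratio of Slc1a5, above 0 over the whole gene, turned to -2.47 on coding transcripts. It was 0.68 with library totals, where its call was lost. With library totals, which shift all genes, the ratios of Slc38a10 (-0.35), Slc38a2 (-0.45), Slc38a6 (-0.23), Slc38a7 (-0.46), Slc38a9 (-0.40), Slc3a2 (-0.40), Slc43a2 (-0.40) and Slc43a3 (-0.16) turned below 0, none of them called in either case. With posterior mean TPM, Slc38a7 (-0.11) and Slc43a2 (-0.078) turned too, and the called Slc6a17 fell to 0.57, under the 2-fold limit. The cause was not tested. By replicate 1 alone, Slc6a13 and not Slc6a9 was the most abundant SLC6 member, and the first member of the other 6 families was the same in each library. Leaving out a library leaves no comparison between libraries. No paired analysis was possible because the labels give 1 group. Depth limits what the members at 0 can show to levels above 3 counts.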

Other observations

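Several members lie side by side in the genome and differed widely in level. Slc38a1, with no counts in either library, lies 44.5 kb from Slc38a2, which had 2533 and 2375 counts on the same strand. Slc6a12, a betaine and GABA carrier, lies 5.34 kb from Slc6a13 on the same strand and had 2 and 1 counts against 99 and 76. Slc36a2 and Slc36a3 had no counts beside Slc36a1, whose 122 and 127 counts lay on the other strand. Slc6a20b, 2.21 kb from Slc6a20a on the same strand, had no counts in either library, while Slc6a20a had 0 and 39.

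The deposited posterior means and maximum-likelihood estimates parted for some members. Slc1a2 had no counts in either library but posterior means of 2.41 and 1.89 TPM. The maximum-likelihood TPM lay outside the gene's own deposited credibility interval for 44 of 64 members in replicate 1 and 42 in replicate 2, and for 8 and 5 of the 26 tested. One of these was Slc6a9, whose 0.68 TPM in replicate 1 lay below its interval of 0.921 to 2.77. Slc1a4 had all 130 counts of replicate 1 on Slc1a4-201 and all 108 of replicate 2 on Slc1a4-202, both coding, with credibility intervals that overlapped.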
